A study of Mus musculus with 32 samples.

Results

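The transcriptome of interscapular brown adipose tissue (iBAT), a depot of fat on the upper back that burns fuel for heat, was compared between the middle of the light phase (ZT6) and its onset (ZT0). Zeitgeber time (ZT) counts the hours since lights on, so the comparison covers the first hours of the phase in which mice rest. It rests on 8 of the 32 libraries of the series, taken by their time labels: 4 mice killed at ZT0 and 4 killed at ZT6, each giving 1 library of its iBAT. Both groups were male C57BL/6J mice, 10 weeks old, with chow at will and not fasted, and no treatment or genetic change is given for either. Both were sequenced on lane 2, as were 4 mice killed at ZT3, which are used here as the step in between. Each mouse was sampled once, so the differences are between mice and not within a mouse over time. In whole tissue, fewer cells of a type and less RNA per cell cannot be told apart.

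In mammalian cells the clock is a loop of transcription factors. BMAL1 (encoded by Arntl) pairs with CLOCK or NPAS2 and switches on genes through E-boxes, among them the Per and Cry repressors that later shut the pair down, and the nuclear receptors REV-ERB alpha and beta (Nr1d1 and Nr1d2). The REV-ERBs silence Arntl and Nfil3 at ROR elements, where the ROR receptors activate. The output factors DBP, TEF and HLF activate genes at D-boxes, which NFIL3 represses. Brown adipocytes take up glucose and fatty acids, make fatty acids from glucose and burn both for heat through the uncoupling protein UCP1. Heat-shock proteins are chaperones that fold and refold proteins, and their genes respond to small rises in temperature through the factor HSF1.

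Values are CPM, read counts of a gene relative to the total of its library after TMM scaling, listed in the order of replicates 1 to 4. A log2 fold change is given with its standard error (SE) and with a p-value from edgeR's quasi-likelihood test over the 32 libraries, adjusted by the Benjamini-Hochberg method over all 15505 genes tested. A fold is the ratio of the mean CPM of the mice and can differ a little from the fitted log2 fold change. A gene is said to have risen or fallen at ZT6 where the adjusted p was under 0.05. The 8 libraries held from 16680401 to 18187410 counts, so 3 counts in a library equal 0.167 to 0.193 CPM, a limit that covers counting error only. The tissue label matched its markers: Ucp1 stood at 2027 to 3116 CPM at ZT0 and at 1701 to 3622 CPM at ZT6, and none of 8 brown adipocyte markers rose or fell. Skeletal muscle RNA was unevenly present. The summed level of 14 muscle markers was 59.6, 380.1, 6034 and 3296 CPM in the ZT0 mice and 57, 2125, 58.5 and 62.4 CPM in the ZT6 mice (exact permutation test, two-sided, p = 0.2, n = 4 each). None of the 14 was past the threshold, although all had a log2 fold change below 0 with a median of -2.22. Of the ZT3 mice, replicate 2 held 8310 CPM and the others 63.86 to 156.3 CPM, and the 20 libraries of the other time points ranged from 60.79 to 8257 CPM. Removing ZT0 replicates 2, 3 and 4 and ZT6 replicate 2, called the muscle-containing libraries below, left 1 ZT0 mouse and kept all libraries of the other time points, also those with muscle RNA. A fit with the muscle level as a covariate kept all 32.

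Between ZT0 and ZT6, 2679 of the 15505 genes were past the threshold, a background of 17.3%. Of these, 1348 rose (8.69% of the genes tested) and 1331 fell (8.58%). Most changes were small, with a median fitted fold of 1.39 among the genes called, while by the fitted values 215 genes were at least 2-fold higher and 202 at least 2-fold lower. In 1906 of the genes called, 71.1%, the mice of the 2 time points did not overlap, beside 16.9% of all genes tested. Fitted on the 8 libraries alone, 1352 genes were past the threshold (736 higher and 616 lower). Without the muscle-containing libraries the number was 603, and with the muscle level as a covariate it was 2872. Of the 95 genes named here as risen or fallen, 24 were not called on the 8 libraries alone, 53 not without the muscle-containing libraries and 5 not with the covariate, and none turned direction. At ZT3 the level of a gene past the threshold was already nearer to ZT6 than to ZT0, on the log2 scale, in 1900 of the 2679 genes (70.9%).

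**Figure D1:**
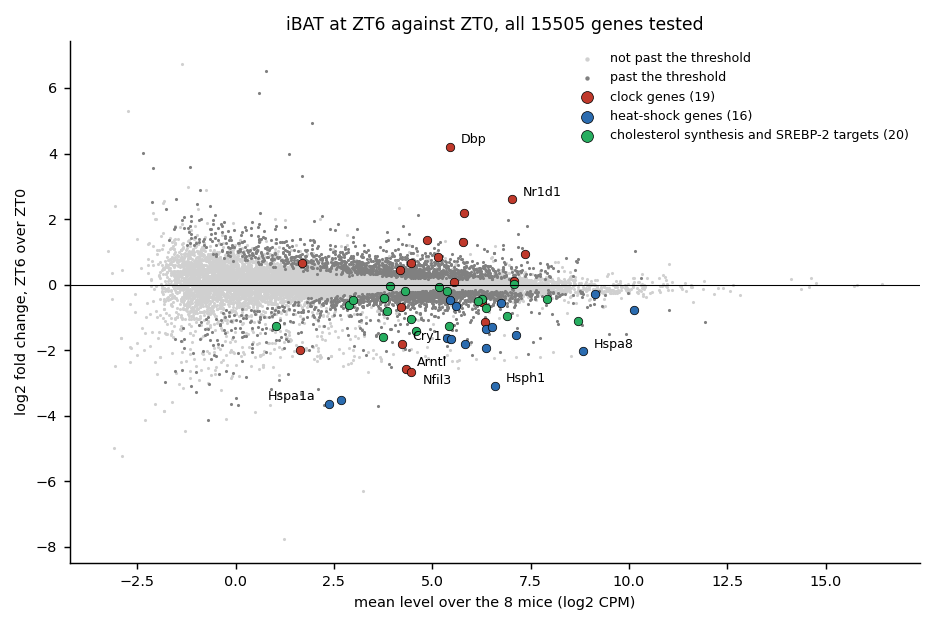
Each point is 1 of the 15505 genes tested, with the mean level over the 8 mice on the x axis (log2 CPM) and the log2 fold change of ZT6 over ZT0 on the y axis. Dark grey points are the 2679 genes past the threshold, and the coloured points show the 19 clock genes on both sides of 0, the 16 heat-shock genes all below it and 19 of the 20 cholesterol genes below it.

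Grouped by function, the lists examined differed in how many of their members changed. All 16 heat-shock genes fell, and 15 of 19 clock genes changed in one direction or the other. In the cholesterol list 8 of 20 genes fell, in the list of fasting and FoxO targets 6 of 13 rose, and of the endoplasmic reticulum (ER) chaperones 8 of 17 fell and 2 rose. None of the 13 mitochondrially encoded mRNAs, 1 of 18 genes of fatty acid oxidation and 2 of 18 genes of glucose uptake and glycolysis (11.1%) were past the threshold, beside 17.3% of all genes tested.

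**Figure D2:**
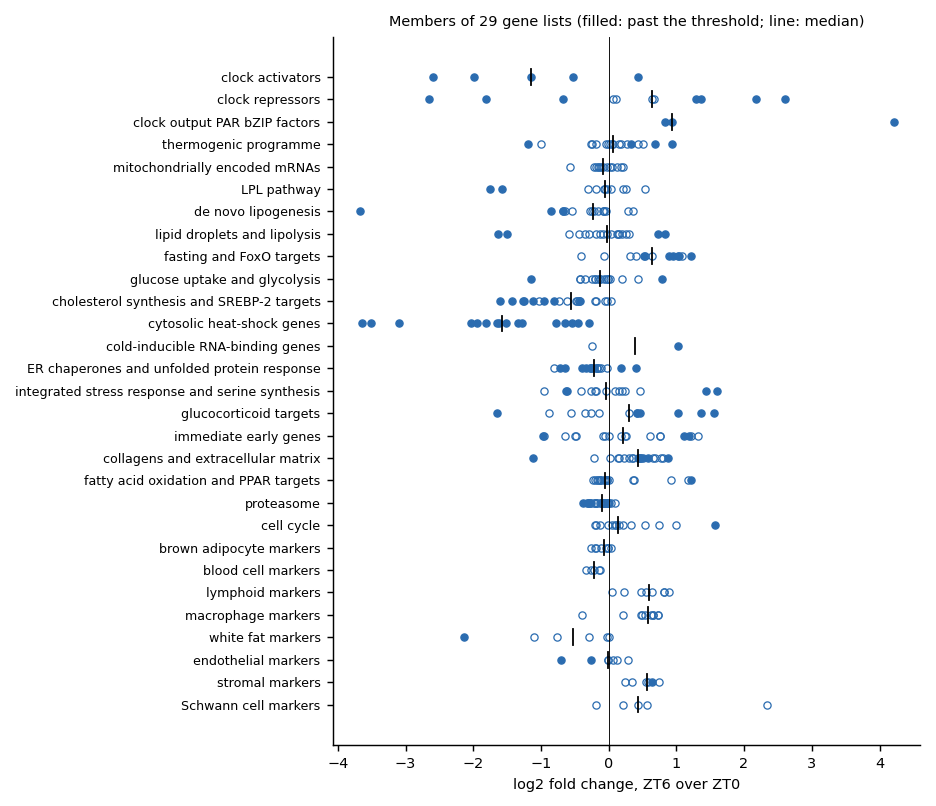
Each circle is a member of 1 of 29 gene lists, placed by its log2 fold change of ZT6 over ZT0 on the x axis. Filled circles are past the threshold, vertical bars mark the median of each list, and the skeletal muscle markers are left out. The heat-shock genes lie from -3.64 to -0.30 with a median of -1.57, and most other lists straddle 0.

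The clock activators were mostly lower at ZT6. Arntl was at 30.3, 35.9, 32.1 and 39.4 CPM in the ZT0 mice and at 5.25, 4.44, 5.22 and 7.97 CPM in the ZT6 mice, with the ZT3 mice at 36.3, 24.3, 29.3 and 20.2 CPM. All ZT6 mice lay below all others, and the level was 6.02-fold lower than at ZT0 (log2 fold change -2.59 ± 0.26, adjusted p = 9.84e-08). Npas2, the partner that can stand in for CLOCK, was at 6.55, 5.51, 3.58 and 4.17 CPM at ZT0 and 1.13, 0.946, 1.51 and 1.34 CPM at ZT6, 4.02-fold lower and without overlap (log2 fold change -2.00 ± 0.35, adjusted p = 0.000315). Clock itself fell by less, from a range of 78.4 to 103 CPM at ZT0 to one of 57.8 to 68.9 CPM at ZT6 (log2 fold change -0.53 ± 0.10, adjusted p = 0.000404). Rora, a ROR receptor that activates Arntl, rose 1.35-fold (log2 fold change 0.43 ± 0.13, adjusted p = 0.0231), a call lost on leaving out ZT0 replicate 2 or ZT6 replicates 1 or 2 in turn (adjusted p from 0.0757 to 0.0958).

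Stretches with a ROR element (TAGGTCA, searched on both strands in RefSeq promoter windows of 250 bases before to 50 after a start site, GRCm38.p6) were found in 2 of the 16 clock genes with a window, Arntl and Nfil3, and in 2 of their 21 windows (9.52%), beside 2.61% of 32817 windows and 11.8% of the 17 windows of the cholesterol list. They are shown because these 2 genes had the largest falls of the clock list, and the capitals mark the element, which lies at positions 31 to 37 after the Arntl start and 12 to 6 before the Nfil3 start.
Arntl, chr7:113207530-113207558, + strand: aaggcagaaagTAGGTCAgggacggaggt
Nfil3, chr13:52981040-52981076, - strand: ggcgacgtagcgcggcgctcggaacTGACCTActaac

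Nfil3, the D-box repressor, fell alongside Arntl. It was at 30.6, 42.3, 40.0 and 38.3 CPM at ZT0, 30.0, 17.7, 26.5 and 15.0 CPM at ZT3 and 3.70, 3.13, 8.47 and 8.69 CPM at ZT6, which is 6.31-fold lower at ZT6 (log2 fold change -2.65 ± 0.26, adjusted p = 8.08e-08). The REV-ERB genes went the other way. Nr1d1 was at 18.6, 29.9, 44.0 and 54.4 CPM at ZT0 and at 190.0, 247, 229.7 and 226 CPM at ZT6, a 6.08-fold higher level with a wide gap between the groups (log2 fold change 2.60 ± 0.23, adjusted p = 2.53e-08). Most of this difference was present at ZT3 (167, 145, 174 and 188 CPM). Nr1d2 was at 17.7, 20.0, 16.5 and 26.4 CPM at ZT0 and 108, 96.1, 84.5 and 78.3 CPM at ZT6 (4.54-fold, log2 fold change 2.18 ± 0.19, adjusted p = 1.9e-08).

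The output factor Dbp had the largest fold rise of all but the 2 repeat-region genes named further below, among called genes that averaged 1 CPM or more and whose mice did not overlap. It was at 5.39, 4.86, 3.93 and 3.67 CPM at ZT0, still at 8.76, 18.0, 15.1 and 16.2 CPM at ZT3, and at 104, 111, 67.8 and 47.5 CPM at ZT6. The ZT6 mice were 18.5-fold above the ZT0 mice (log2 fold change 4.21 ± 0.27, adjusted p = 3.73e-11), and replicates 3 and 4 of ZT6 were below replicates 1 and 2. The related factors Tef (1.92-fold, log2 fold change 0.94 ± 0.17, adjusted p = 0.000376) and Hlf (1.79-fold, log2 fold change 0.84 ± 0.16, adjusted p = 0.0005) rose less, and without the muscle-containing libraries the count of rises was 1. Unlike the REV-ERBs, all 3 output factors were nearer to ZT0 than to ZT6 at ZT3 by the fitted values. Of the 3, only Tef was past the threshold in the test of ZT3 below, a call lost on leaving out single mice. Of the Dbp exonic bases 18% overlap the opposite-strand gene Sphk2, where reads can be told apart only if the counting used strand.

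Of the 11 clock repressors 4 rose and 3 fell (63.6% called, beside 17.3% of all genes tested). The period and cryptochrome repressors did not move as 1 group. Per3 rose 2.44-fold, from 31.8, 30.2, 29.2 and 37.4 CPM to 101, 94.6, 68.5 and 49.6 CPM (log2 fold change 1.29 ± 0.19, adjusted p = 3.99e-05), and again the lower ZT6 values were those of replicates 3 and 4. Per1 rose 2.58-fold, from a range of 10.1 to 19.8 CPM at ZT0 to one of 29.6 to 54.9 CPM at ZT6 (log2 fold change 1.36 ± 0.31, adjusted p = 0.00337). Cry1 fell 3.51-fold, from 28.7, 25.8, 35.2 and 26.3 CPM to 8.24, 10.5, 7.29 and 6.96 CPM (log2 fold change -1.81 ± 0.15, adjusted p = 1.36e-08), and the ZT3 mice lay between them at 11.7 to 20.5 CPM. Cry2 had a log2 fold change of 0.07 (adjusted p = 0.77). Per2 was at 16.6, 22.8, 37.2 and 14.0 CPM at ZT0, 7.38, 4.58, 6.44 and 8.17 CPM at ZT3 and 13.8, 14.7, 13.7 and 14.2 CPM at ZT6. Its fall to ZT6 (log2 fold change -0.68 ± 0.23, adjusted p = 0.041) was lost on leaving out ZT0 replicates 2 or 3 or ZT6 replicates 1, 2, 3 or 4 in turn (adjusted p from 0.0696 to 0.321), and the ZT0 and ZT6 mice overlapped. The dip at ZT3 was firmer and is described with the test of ZT3 below. The 4 rises and 3 falls among the 11 clock repressors became 3 and 2 without the muscle-containing libraries, and the 1 rise and 4 falls among the 5 activators became 0 and 4.

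E-boxes and D-boxes are shown here for repressor genes whose levels differed in direction or timing. An E-box (CACGTG) was found in 5 of the 16 clock genes with a window and in 6 of their 21 windows (28.6%), beside 7.15% of all windows, and a D-box (TTATGTAA or TTACGTAA) in 1 window, that of Per3 (4.76%, beside 1.05%). Cry1 and Per1 hold 1 E-box each, Ciart holds 3 and Per3 holds 2 D-boxes, all in capitals and all before the start site.
Cry1, chr10:85185084-85185139, - strand: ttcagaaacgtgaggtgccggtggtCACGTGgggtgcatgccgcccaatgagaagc
Per1, chr11:69098758-69098813, + strand: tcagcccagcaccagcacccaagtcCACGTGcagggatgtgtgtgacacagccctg
Ciart, chr3:95882242-95882369, - strand: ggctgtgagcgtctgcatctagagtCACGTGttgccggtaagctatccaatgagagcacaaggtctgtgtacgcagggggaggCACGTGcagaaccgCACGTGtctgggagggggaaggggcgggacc
Per3, chr4:151044791-151044895, - strand: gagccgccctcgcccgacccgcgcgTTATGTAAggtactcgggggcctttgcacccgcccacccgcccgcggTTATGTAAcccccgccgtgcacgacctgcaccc
E-boxes were also in 23.5% of the windows of the cholesterol list and 15.8% of those of the heat-shock list. These matches are letters in a window and say nothing about which factor was bound in these mice.

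**Figure D3:**
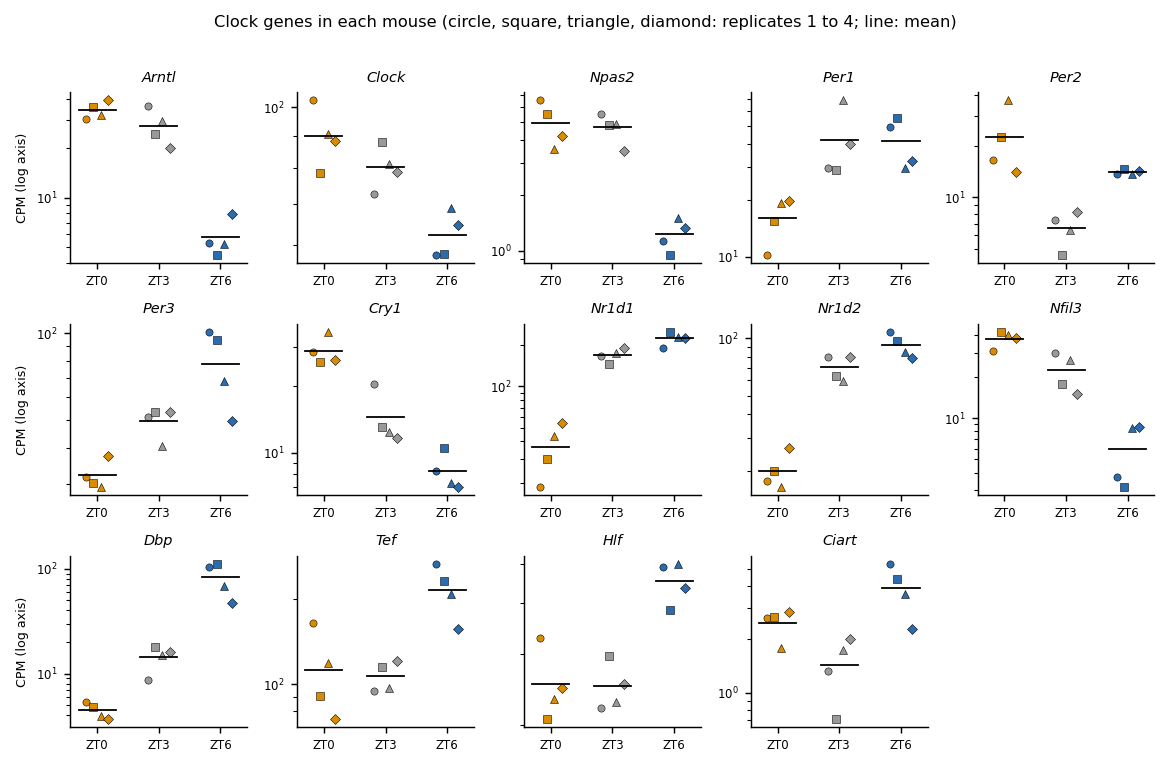
CPM of 14 clock genes (log axes) in each of the 4 mice at ZT0, ZT3 and ZT6, with symbols for replicates 1 to 4 and a line at the mean. Arntl drops mainly between ZT3 and ZT6, and Nr1d1 and Nr1d2 climb mainly between ZT0 and ZT3. Npas2 and Nfil3 are lower at ZT6 than at ZT0, and ZT3 was not off the line between them for either gene. Dbp, Tef and Hlf are nearer to ZT0 than to ZT6 at ZT3 (log2 scale), and Per2 is lowest at ZT3.

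The heat-shock genes, cytosolic apart from the mitochondrial pair Hspd1 and Hspe1, were lower throughout: 16 of 16 fell, beside 8.58% of all genes tested. In 15 of them no ZT6 mouse reached the lowest ZT0 mouse, while 71.1% of all called genes had no overlap between the time points. The median log2 fold change of the list was -1.57, while the median over all genes tested was -0.0045. The count was 14 on the 8 libraries alone and 14 without the muscle-containing libraries, and 10 genes fell by more than 1.5-fold by the test against that fold. Hsph1 (HSP110), which helps HSP70 release its clients, was at 178, 171, 250.3 and 94.7 CPM at ZT0, 61.0, 28.9, 73.5 and 26.9 CPM at ZT3 and 26.4, 19.0, 19.3 and 16.5 CPM at ZT6. Every ZT6 mouse was far below every ZT0 mouse, 8.55-fold on average (log2 fold change -3.10 ± 0.35, adjusted p = 8.3e-07). The inducible HSP70 genes Hspa1a and Hspa1b had the deepest falls of the list. Hspa1a was at 6.68, 11.8, 15.1 and 4.67 CPM at ZT0 and at 0.418, 0.946, 0.561 and 1.11 CPM at ZT6 (12.6-fold, log2 fold change -3.64 ± 0.51, adjusted p = 2.51e-05), and Hspa1b was 11.5-fold lower (log2 fold change -3.52 ± 0.52, adjusted p = 3.94e-05). The copies are nearly identical, so reads may have been split between them or left out, and their values are uncertain. Of the Hspa1a exonic bases 19% also lie opposite to Gm20481.

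The constitutive members fell as well. Hspa8 (HSC70) was at 629, 779.9, 937 and 563 CPM at ZT0 and 151, 194, 174 and 194 CPM at ZT6, 4.08-fold lower (log2 fold change -2.03 ± 0.19, adjusted p = 5.93e-08), one of the 5 largest falls in CPM among called genes whose mice did not overlap. Hsp90ab1, the constitutive HSP90, was at 1432, 1281, 1588 and 1315 CPM and 895, 794, 779 and 821 CPM, only 1.71-fold lower but without overlap (log2 fold change -0.77 ± 0.14, adjusted p = 0.000456). The inducible Hsp90aa1 fell 2.87-fold (log2 fold change -1.52 ± 0.27, adjusted p = 0.00029). Among the J-domain co-chaperones that hand proteins to HSP70, Dnaja1 fell 3.84-fold (log2 fold change -1.94 ± 0.17, adjusted p = 2.53e-08) and Dnajb1 fell 3.06-fold (log2 fold change -1.61 ± 0.18, adjusted p = 7.54e-07). Chordc1, an HSP90 co-chaperone, fell 3.50-fold (log2 fold change -1.81 ± 0.17, adjusted p = 6.86e-08), and Stip1, which links HSP70 to HSP90, fell 2.44-fold. The smallest change was that of Hspd1, the mitochondrial HSP60, at 1.23-fold (log2 fold change -0.30 ± 0.10, adjusted p = 0.0363), lost on leaving out ZT0 replicates 1 or 3 or ZT6 replicates 2, 3 or 4 in turn (adjusted p from 0.0643 to 0.174). The call of Bag3, an HSP70 exchange factor, was lost without ZT0 replicate 3 (adjusted p = 0.0734).

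The ZT0 mice differed among themselves in this group: replicate 3 was the highest of the 4 in 11 of the 16 genes and replicate 4 the lowest in 14. At ZT3 all 16 genes were nearer to the ZT6 level than to the ZT0 level, beside 70.9% of all called genes, and ZT3 was off the line between the others in none of them, beside 2.98% of all genes tested. A heat-shock element, here 3 alternating GAA or TTC units each separated by 2 bases, was found in 4 of the 13 genes of the list with a window (Hsph1, Hspd1, Hspe1 and Chordc1). That is 5 of their 19 windows (26.3%), beside 0.603% of all windows. The windows of Hsph1 overlap and hold the same element, so this share counts some elements more than once. The stretches are shown as the feature shared by members with falls from 1.23-fold to 8.55-fold, with the element in capitals. Hspd1 and Hspe1 lie head to head and share 1 stretch, printed once on the Hspd1 strand.
Hsph1, chr5:149636280-149636308, - strand: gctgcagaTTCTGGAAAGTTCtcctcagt
Chordc1, chr9:18292260-18292288, + strand: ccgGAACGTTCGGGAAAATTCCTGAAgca
Hspd1, chr1:55088034-55088101, - strand: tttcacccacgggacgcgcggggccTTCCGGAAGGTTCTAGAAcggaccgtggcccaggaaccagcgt

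**Figure D4:**
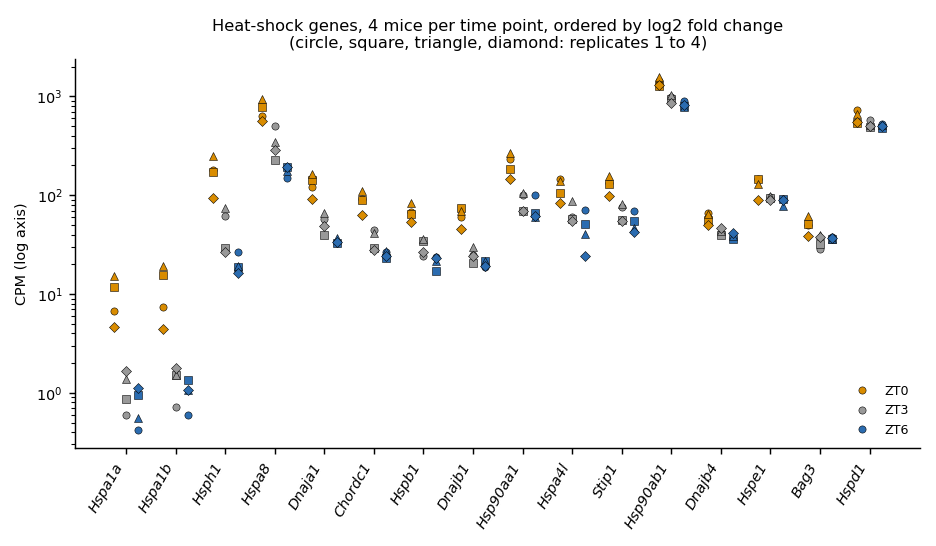
CPM (log axis) of the 16 heat-shock genes in each of the 4 mice at ZT0, ZT3 and ZT6, ordered by log2 fold change from Hspa1a to Hspd1, with symbols for replicates 1 to 4. The ZT0 mice lie above the ZT6 mice in 15 of the 16 genes, beside no overlap in 71.1% of all called genes.

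The cold-inducible RNA-binding gene Cirbp, which rises in cells kept cool, moved opposite to the heat-shock genes. It was at 14.0, 15.3, 12.0 and 23.2 CPM at ZT0, 42.5, 34.2, 28.2 and 27.2 CPM at ZT3 and 32.7, 29.3, 32.5 and 37.0 CPM at ZT6, 2.04-fold higher and without overlap (log2 fold change 1.02 ± 0.18, adjusted p = 0.000226). Its relative Rbm3 stood at 32.4, 40.6, 34.1 and 36.3 CPM at ZT0 and 30.8, 29.3, 28.9 and 32.1 CPM at ZT6 (log2 fold change -0.24 ± 0.12, adjusted p = 0.182). It also had no overlap between the mice, with the opposite sign, and did not pass (adjusted p = 0.0414 with the muscle covariate). Chaperones of the ER changed little in size. Of 17 genes of this list 8 fell (beside 8.58% of all genes tested) and 2 rose (beside 8.69%). The folds of those that fell ran from 1.16 (Pdia6) to 1.64 (Manf). Manf, a secreted ER stress protein, was at 28.1, 30.6, 31.5 and 25.1 CPM at ZT0 and 17.2, 17.2, 18.2 and 17.5 CPM at ZT6 (log2 fold change -0.72 ± 0.10, adjusted p = 2.92e-05). Calr, the calcium-binding chaperone calreticulin, fell 1.31-fold (log2 fold change -0.39 ± 0.08, adjusted p = 0.0011), and Hspa5, the central ER chaperone BiP, fell 1.20-fold (log2 fold change -0.26 ± 0.07, adjusted p = 0.0137), lost without ZT6 replicate 2 (adjusted p = 0.0538). Without the muscle-containing libraries the 8 falls became 1 and the 2 rises 0, and on the 8 libraries alone they became 4 and 1. In the list of the integrated stress response and serine synthesis, 2 of 15 genes rose and 2 fell (26.7%, beside 17.3% of all genes tested). Sesn2, an inhibitor of the growth kinase mTORC1, rose 3.03-fold, from 4.62, 8.00, 10.7 and 5.51 CPM to 28.5, 22.8, 17.9 and 18.0 CPM (log2 fold change 1.60 ± 0.39, adjusted p = 0.00598). Trib3, a pseudokinase that restrains AKT, rose 2.72-fold, from a range of 2.95 to 4.89 CPM at ZT0 to one of 10.6 to 14.0 CPM at ZT6 (log2 fold change 1.44 ± 0.21, adjusted p = 3.71e-05). The pathway's own factor Atf4 fell 1.53-fold (log2 fold change -0.61 ± 0.18, adjusted p = 0.0183), lost on leaving out ZT0 replicates 2 or 3 or ZT6 replicates 1 or 3 in turn (adjusted p from 0.0525 to 0.113). The 2 rises and 2 falls of this list became 1 and 0 without the muscle-containing libraries.

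In de novo lipogenesis, the route from glucose to fatty acids, 3 of 16 genes fell (18.8%, beside 8.58% of all genes tested) and none rose, and the mice were spread widely. Srebf1, the transcription factor of the pathway, was at 612, 549, 732 and 494 CPM and 424, 479, 360.0 and 231 CPM (1.60-fold, log2 fold change -0.68 ± 0.23, adjusted p = 0.0391), a call lost on leaving out ZT0 replicates 1, 2 or 3 or ZT6 replicates 3 or 4 in turn (adjusted p from 0.0541 to 0.135). Elovl5, a fatty acid elongase, fell 1.80-fold (log2 fold change -0.85 ± 0.28, adjusted p = 0.038), lost on leaving out ZT0 replicates 1, 2 or 3 or ZT6 replicates 3 or 4 in turn (adjusted p from 0.0746 to 0.127). The synthetic enzymes did not pass. Fasn (fatty acid synthase) was at 25723, 19981, 36265 and 17025 CPM at ZT0 and 35049.7, 32249, 21189.8 and 6034 CPM at ZT6, with replicate 4 far below the other ZT6 mice (log2 fold change -0.07 ± 0.48, adjusted p = 0.943). Acly, which makes cytosolic acetyl-CoA, was at 5520.1, 4046, 7361 and 3275 CPM and 6849, 6024, 2867 and 933 CPM (log2 fold change -0.28 ± 0.50, adjusted p = 0.742). Replicate 4 of ZT6 was the lowest of its group in 15 of the 16 genes, and replicate 4 of ZT0 in 14. On the 8 libraries alone, as without the muscle-containing libraries, 1 gene of the list fell, and with the covariate 4 did.

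Of the genes of cholesterol synthesis and the targets of SREBP-2, 8 of 20 fell (beside 8.58% of all genes tested), none rose, and 19 of 20 had a log2 fold change below 0 (median -0.55). Msmo1, a sterol demethylation enzyme, was at 36.3, 33.9, 41.9 and 26.5 CPM at ZT0 and 14.9, 13.9, 12.7 and 10.1 CPM at ZT6, 2.69-fold lower without overlap (log2 fold change -1.42 ± 0.23, adjusted p = 0.000104). Stard4, a cholesterol carrier, was at 19.1, 17.8, 20.5 and 16.5 CPM and 10.6, 10.2, 9.42 and 12.0 CPM (1.75-fold, log2 fold change -0.81 ± 0.13, adjusted p = 9.69e-05). Cyp51 fell 2.40-fold (log2 fold change -1.26 ± 0.29, adjusted p = 0.00359) and Mvd fell 3.03-fold (log2 fold change -1.60 ± 0.40, adjusted p = 0.00636), both with overlap between the groups. Insig1, which holds SREBPs in the ER, fell 2.16-fold (log2 fold change -1.11 ± 0.32, adjusted p = 0.0155), lost on leaving out ZT0 replicate 3 or ZT6 replicate 4 in turn (adjusted p from 0.0562 to 0.0583). The 8 falls in the list became 6 on the 8 libraries alone, 2 without the muscle-containing libraries and 9 with the covariate, and replicate 3 was the highest ZT0 mouse in 18 of the 20 genes. All 8 genes that fell were nearer to ZT6 than to ZT0 at ZT3, beside 70.9% of all called genes.

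Of the genes for lipoprotein lipase (LPL) handling, 2 of 11 fell and none rose (18.2% called, beside 17.3% of all genes tested). Among them was Angptl8, a feeding-induced partner of LPL inhibitors, at 40.3, 53.8, 129 and 40.8 CPM at ZT0 and 23.5, 20.9, 19.5 and 14.0 CPM at ZT6 (3.38-fold, log2 fold change -1.76 ± 0.47, adjusted p = 0.00995), a call lost without ZT0 replicate 3 (adjusted p = 0.0823). Lpl itself was at 3565, 2986, 3239.7 and 2501 CPM at ZT0 and 2615, 2779, 3090.0 and 3622 CPM at ZT6 (log2 fold change -0.02 ± 0.12, adjusted p = 0.925). Angptl4, the LPL inhibitor of the fasted state, was at 158, 269.8, 112 and 490.5 CPM and 261, 388, 362 and 492 CPM, and the groups overlapped over most of their range (log2 fold change 0.54 ± 0.44, adjusted p = 0.416). Among 19 genes of lipid droplets and lipolysis, 2 rose and 2 fell (21.1%, beside the same 17.3%). Pnpla3, a lipid droplet hydrolase induced by feeding, was at 1482, 1623, 1554 and 1071 CPM at ZT0, 854, 492, 620.4 and 528 CPM at ZT3 and 600.3, 546, 617 and 254 CPM at ZT6, 2.84-fold lower (log2 fold change -1.51 ± 0.30, adjusted p = 0.00105). G0s2, the inhibitor of the lipase ATGL, was at 225, 269, 449 and 346 CPM and 94.4, 109, 111 and 99.5 CPM (3.11-fold, log2 fold change -1.64 ± 0.34, adjusted p = 0.0013). Neither gene had overlapping groups. ATGL itself (Pnpla2) had a log2 fold change of -0.03 ± 0.06 (adjusted p = 0.762). Gpat4, which starts triglyceride synthesis, rose 1.77-fold, from 315, 182, 263 and 207 CPM to 405, 383, 442 and 485 CPM (log2 fold change 0.83 ± 0.17, adjusted p = 0.0011), and its relative Gpat3 rose 1.66-fold (log2 fold change 0.73 ± 0.22, adjusted p = 0.0237), lost on leaving out ZT0 replicates 1 or 3 or ZT6 replicate 3 in turn (adjusted p from 0.0522 to 0.102). The 2 rises and 2 falls of this list became 1 and 0 without the muscle-containing libraries, and 4 genes fell with the covariate. In the LPL list neither fall was called without those libraries.

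In glucose handling, 1 of 18 genes fell and 1 rose (11.1% called, beside 17.3% of all genes tested). Hk2, the insulin-induced hexokinase, was at 652, 458, 776 and 309 CPM at ZT0 and 279.6, 233, 302 and 181 CPM at ZT6 (2.21-fold, log2 fold change -1.14 ± 0.31, adjusted p = 0.0117). The groups did not overlap, but the ZT0 mice ranged widely and the call was lost without ZT0 replicate 3 (adjusted p = 0.0593). Pfkfb3, which makes an activator of glycolysis, rose 1.72-fold, from 258, 223, 429.7 and 319.7 CPM to 576, 549.6, 538 and 457 CPM (log2 fold change 0.79 ± 0.26, adjusted p = 0.0334), lost on leaving out ZT0 replicates 1 or 2 or ZT6 replicates 1, 2 or 3 in turn (adjusted p from 0.0604 to 0.115). The insulin-responsive transporter Slc2a4 (GLUT4) was at 452 to 753 CPM and 269.8 to 555 CPM (log2 fold change -0.43 ± 0.19, adjusted p = 0.123). Neither call of the list was made without the muscle-containing libraries, and with the covariate the rise was lost. Outside the list, Ppp1r3b, which brings a phosphatase to glycogen and favours its storage, was among the same 5 largest falls in CPM. It was at 1202, 864, 1313 and 857 CPM at ZT0, 578, 359, 334 and 301 CPM at ZT3 and 399, 342, 529 and 229.8 CPM at ZT6 (2.83-fold, log2 fold change -1.50 ± 0.32, adjusted p = 0.00188, and 0.0656 without the muscle-containing libraries).

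Genes that rise in fasting or under the factor FoxO1 were higher in part: 6 of 13 rose, beside 8.69% of all genes tested, and none fell. Cpt1a, which admits fatty acids to the mitochondrion, showed the tightest change. It was at 9.05, 12.3, 10.2 and 11.6 CPM at ZT0, 16.0, 15.4, 18.3 and 16.7 CPM at ZT3 and 22.7, 22.6, 18.0 and 20.1 CPM at ZT6, 1.94-fold higher (log2 fold change 0.95 ± 0.10, adjusted p = 3.57e-07). Klf15, a factor of amino acid use, was at 19.1, 13.8, 16.6 and 25.1 CPM at ZT0 and 29.6, 27.0, 41.1 and 40.8 CPM at ZT6 (1.86-fold, log2 fold change 0.89 ± 0.23, adjusted p = 0.00746), and Foxo1 itself rose 1.44-fold (log2 fold change 0.53 ± 0.13, adjusted p = 0.00658). Ddit4 (REDD1), an mTORC1 inhibitor, rose 2.04-fold (log2 fold change 1.02 ± 0.26, adjusted p = 0.00787). Pdk4, which blocks pyruvate entry to the mitochondrion, had the largest rise in CPM of any gene past the threshold. Its ZT0 mice were at 461, 824, 519 and 1191 CPM and its ZT6 mice at 1482, 1655, 1385 and 1602 CPM, with ZT3 still higher at 1992, 1509, 2033 and 2117 CPM. The groups did not overlap (2.04-fold, log2 fold change 1.03 ± 0.34, adjusted p = 0.0381), yet the call was lost on leaving out ZT0 replicates 1, 2 or 3 or ZT6 replicates 1, 2, 3 or 4 in turn (adjusted p from 0.0527 to 0.129).

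Pck1, the enzyme of glyceride and glucose synthesis, was at 1238, 1547, 843 and 2806 CPM at ZT0 and 2416, 2556, 2159.7 and 2917 CPM at ZT6. It did not pass (log2 fold change 0.64 ± 0.33, adjusted p = 0.177), but its ZT0 replicate 4 lay within the ZT6 range, and without that mouse the adjusted p was 0.0206. The same mouse stood apart in Ppara, the nuclear receptor of fatty acid use, at 49.9, 27.3, 44.2 and 145 CPM at ZT0 and 151, 149, 165 and 153 CPM at ZT6. Ppara rose 2.32-fold (log2 fold change 1.21 ± 0.35, adjusted p = 0.0158), lost on leaving out ZT0 replicates 1, 2 or 3 in turn (adjusted p from 0.0573 to 0.0641) and lost on the 8 libraries alone (adjusted p = 0.102). Replicate 4 was the highest ZT0 mouse in 9 of the 13 fasting genes. The count of 6 was the same on the 8 libraries alone, 8 without ZT0 replicate 4 and 2 without the muscle-containing libraries. Lep (leptin), the satiety hormone, was at 54.3, 83.6, 143 and 139 CPM at ZT0, 64.6, 44.7, 48.5 and 32.4 CPM at ZT3 and 26.0, 23.1, 29.9 and 16.2 CPM at ZT6 (4.41-fold lower, log2 fold change -2.14 ± 0.45, adjusted p = 0.00162), and without the muscle-containing libraries it did not pass (adjusted p = 0.34). It was the only white fat marker of the 6 tested to fall (16.7%, beside 8.58% of all genes tested). The summed level of the 6 was 178.8 ± 53 CPM at ZT0 and 73.75 ± 13.2 CPM at ZT6 (SD, n = 4 each, exact permutation test, two-sided, p = 0.0286, the smallest p that 4 against 4 mice can give), and Lep itself made up most of that difference.

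**Figure D5:**
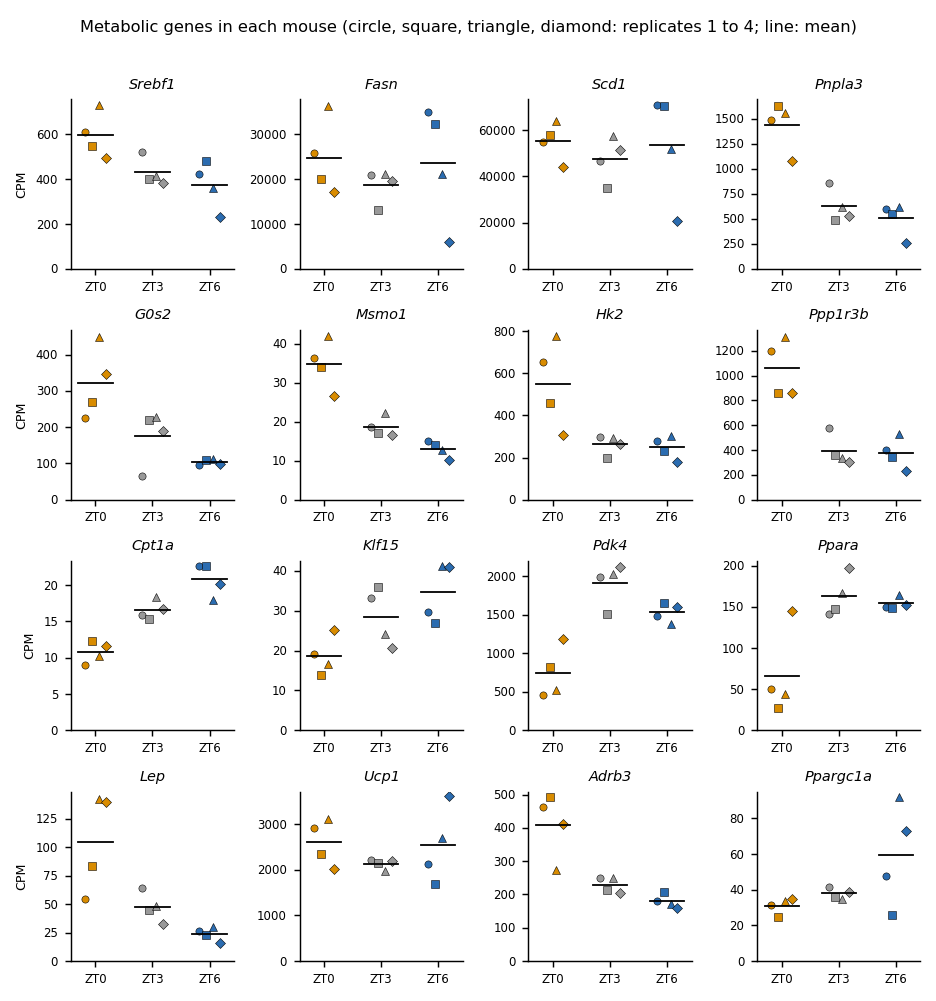
CPM of 16 metabolic genes in each of the 4 mice at ZT0, ZT3 and ZT6, with symbols for replicates 1 to 4 and a line at the mean. The y axes are linear and start at 0. Pnpla3, Hk2 and Ppp1r3b are already low at ZT3, Cpt1a climbs in steps, and Fasn, Scd1 and Ucp1 spread widely at ZT6 and did not pass the test.

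Of 18 thermogenic genes, 3 rose and 1 fell (22.2%, beside 17.3% of all genes tested), with a median log2 fold change of 0.06. Ucp1 was at 2929, 2346, 3116 and 2027 CPM at ZT0 and 2128, 1701, 2706 and 3622 CPM at ZT6 (log2 fold change -0.04 ± 0.28, adjusted p = 0.947), and the ZT6 mice covered the whole ZT0 range. Adrb3, the beta3-adrenergic receptor through which noradrenaline drives heat production, was at 461, 493, 273 and 413 CPM at ZT0, 249, 213, 249 and 205 CPM at ZT3 and 180.3, 208, 171 and 159.7 CPM at ZT6. No ZT6 mouse reached the ZT0 range (2.28-fold lower, log2 fold change -1.19 ± 0.28, adjusted p = 0.00471). Of its exonic bases, 24.9% overlap the opposite-strand Gm45470. Ppargc1a (PGC-1alpha), a coactivator of mitochondrial genes, was at 31.5, 24.7, 33.7 and 34.6 CPM at ZT0 and 47.6, 25.5, 91.7 and 72.9 CPM at ZT6. Its rise (1.91-fold, log2 fold change 0.93 ± 0.27, adjusted p = 0.0174) rested on ZT6 replicates 3 and 4, and the call was lost on leaving out ZT0 replicate 2 or ZT6 replicates 3 or 4 in turn (adjusted p from 0.0544 to 0.106). Dio2, which activates thyroid hormone, was at 20.5 to 30.0 CPM at ZT0 and 14.5 to 42.5 CPM at ZT6 (log2 fold change 0.07 ± 0.67, adjusted p = 0.958). None of the 3 rises was called on the 8 libraries alone, and none of the 4 calls remained without the muscle-containing libraries.

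Mitochondrially encoded genes took 23.34% ± 1.79 of all counts at ZT0 and 24.34% ± 2.52 at ZT6 (SD, n = 4 each, exact permutation test, two-sided, p = 0.514), and none of the 13 mRNAs was past the threshold. Among them mt-Co1, a subunit of cytochrome c oxidase, was at 98350.0, 76712, 81266 and 92433 CPM at ZT0 and 82987, 84443, 86645 and 99811 CPM at ZT6 (log2 fold change 0.02 ± 0.10, adjusted p = 0.91). The ribosomal RNA mt-Rnr2 fell, by more CPM than any other gene past the threshold. It was at 4052, 6511, 6992 and 4045 CPM at ZT0 and 2073, 2042, 2622 and 3155 CPM at ZT6 (2.18-fold, log2 fold change -1.13 ± 0.17, adjusted p = 6.9e-05). Without the muscle-containing libraries it did not pass (adjusted p = 0.128).

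Of 13 targets of the glucocorticoid receptor, 5 rose (beside 8.69% of all genes tested) and 1 fell (beside 8.58%), while the classic targets Fkbp5 (-0.56 on the log2 scale, adjusted p = 0.324) and Tsc22d3 (-0.35, adjusted p = 0.17) did not pass. Per1 and Ddit4, described above, were 2 of the 5. Mt2, a metal-binding metallothionein, was at 13.3, 14.5, 12.0 and 3.28 CPM at ZT0 and 39.3, 25.7, 34.8 and 26.2 CPM at ZT6 (2.92-fold, log2 fold change 1.55 ± 0.43, adjusted p = 0.0127), with 73.5% of its exonic bases opposite to Gm45774. Klf9, a transcription factor induced by glucocorticoids, rose 1.33-fold (log2 fold change 0.41 ± 0.11, adjusted p = 0.00956), and the rise of Mt1 (log2 fold change 0.46 ± 0.16, adjusted p = 0.0443) was lost on leaving out ZT0 replicates 1, 3 or 4 or ZT6 replicates 1, 2, 3 or 4 in turn (adjusted p from 0.0506 to 0.137). Cdkn1a, the cell cycle inhibitor p21, was the one that fell, from 98.8, 79.8, 117 and 65.1 CPM to 22.6, 26.4, 30.5 and 35.4 CPM (3.14-fold, log2 fold change -1.65 ± 0.23, adjusted p = 2.23e-05). The 5 rises became 3 on the 8 libraries alone, 1 without the muscle-containing libraries and 4 with the covariate. Of 18 immediate early genes, 2 rose and 1 fell (16.7%, beside 17.3% of all genes tested). Klf2 (2.16-fold, log2 fold change 1.11 ± 0.27, adjusted p = 0.00553) and Klf4 (2.27-fold, log2 fold change 1.18 ± 0.29, adjusted p = 0.00664) both rose, with the ZT6 mice at 50.7, 37.0, 16.6 and 18.9 CPM for Klf4, and both calls were lost without ZT6 replicate 1 (adjusted p = 0.05 and 0.0504). Fosl2 fell 1.95-fold, from a range of 34.3 to 52.3 CPM at ZT0 to one of 19.1 to 28.4 CPM at ZT6 (log2 fold change -0.96 ± 0.24, adjusted p = 0.00658). Without the muscle-containing libraries none of the 3 was called, and on the 8 libraries alone the 2 rises were not. Fos itself ranged from 0.642 to 9.95 CPM at ZT0 and from 0.505 to 14.7 CPM at ZT6 (log2 fold change -0.08 ± 1.10, adjusted p = 0.97).

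Of 20 collagen and matrix genes, 5 rose (beside 8.69% of all genes tested), 1 fell and 14 were not called, with a median log2 fold change of 0.44. The collagen VI genes Col6a1, Col6a2 and Col6a3 rose 1.39-, 1.43- and 1.35-fold (adjusted p = 0.0273, 0.0193 and 0.0319), Col5a1 rose 1.5-fold (log2 fold change 0.58 ± 0.17, adjusted p = 0.0188) and Fbn1, which builds microfibrils, 1.85-fold (log2 fold change 0.88 ± 0.30, adjusted p = 0.0409). Each of these 5 calls was lost without at least 1 single library: Col6a1 without ZT0 replicates 1 or 3 or ZT6 replicate 2 (adjusted p from 0.0704 to 0.134), Col6a2 without ZT0 replicates 1 or 3 or ZT6 replicate 2 (adjusted p from 0.0534 to 0.109), Col6a3 without ZT0 replicates 1, 2 or 3 or ZT6 replicate 2 (adjusted p from 0.0539 to 0.141), Col5a1 without ZT0 replicate 1 or ZT6 replicate 2 (adjusted p from 0.08 to 0.111) and Fbn1 without ZT0 replicates 1, 2 or 3 or ZT6 replicates 1 or 2 (adjusted p from 0.109 to 0.133). None was called on the 8 libraries alone, 1 was without the muscle-containing libraries, and 10 genes of the list rose with the muscle level as a covariate. ZT0 replicate 1 was the lowest ZT0 mouse in 17 of the 20 genes, and ZT6 replicate 2, which also held muscle RNA, was the highest ZT6 mouse in 15. Serpinh1 (HSP47), the heat-inducible chaperone of collagen, was the member that fell. It was at 336, 409, 491 and 353 CPM at ZT0, 291, 234, 328 and 233 CPM at ZT3 and 212, 206, 165 and 149.7 CPM at ZT6, 2.17-fold lower and without overlap (log2 fold change -1.12 ± 0.14, adjusted p = 5.22e-06).

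Markers of other cells were measured beside the matrix genes. Of 6 stromal markers 1 rose (beside 8.69% of all genes tested), Pdgfra (1.55-fold, log2 fold change 0.63 ± 0.18, adjusted p = 0.0174), lost on leaving out ZT0 replicate 1 or ZT6 replicates 1 or 2 in turn (adjusted p from 0.0532 to 0.0791), and all 6 had a log2 fold change above 0 (median 0.57). The stromal sum ranged from 60.98 to 135.6 CPM at ZT0 and from 83.73 to 152 CPM at ZT6 (exact permutation p = 0.2). None of 10 macrophage markers passed the test (1 was higher on the 8 libraries alone, 2 with the covariate and 3 without ZT0 replicate 4), with a sum of 77.0 to 111 CPM at ZT0 and 96.7 to 165 CPM at ZT6 (exact permutation p = 0.0857), and their median log2 fold change was 0.58. The part of stromal and macrophage RNA in the matrix result was not tested. Of 7 endothelial markers 2 fell (beside 8.58% of all genes tested), and without the muscle-containing libraries the count was 1, while no stromal marker rose. Emcn (endomucin), a sialomucin of capillaries and veins, was at 46.9, 45.0, 39.7 and 36.0 CPM at ZT0, 32.3, 27.8, 30.3 and 29.4 CPM at ZT3 and 23.7, 24.2, 23.7 and 31.0 CPM at ZT6 (1.63-fold, log2 fold change -0.71 ± 0.09, adjusted p = 5.19e-06), while the pan-endothelial Pecam1 was at 131, 145, 132 and 152 CPM and 137, 134, 132 and 151 CPM (log2 fold change -0.01 ± 0.09, adjusted p = 0.94). The endothelial sum did not separate the groups (919.7 to 1158 CPM at ZT0, 918 to 1174 CPM at ZT6, exact permutation p = 0.857).

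Several of the largest folds belonged to no list. The extreme rises were those of Gm10800 (chr2:98666547-98667301, - strand, annotated as protein coding) and Gm26870 (chr9:3000282-3038313, - strand, a long non-coding RNA), both in stretches of satellite repeat, where reads match many places. Gm10800 had 2 counts over the 4 ZT0 mice, 0 at ZT3 and 234 at ZT6, a CPM ratio of 113 with a 95% counting interval from 31 to 941. Gm26870 had 3, 0 and 206 counts, a ratio of 66.5 (22.4 to 325). In the 20 libraries of the other time points neither exceeded 0.661 CPM, and all 4 ZT6 mice lay above that value (3.22, 3.37, 3.59 and 3.29 CPM for Gm10800). Both genes thus passed the filter by time point through their ZT6 mice. Their height at ZT6 against the other libraries is therefore no separate support for the rise. Tfrc, the transferrin receptor that imports iron, was at 33.7, 62.4, 39.7 and 60.9 CPM at ZT0, 60.5, 223, 194 and 272 CPM at ZT3 and 182, 201, 272 and 121 CPM at ZT6 (3.94-fold, log2 fold change 1.98 ± 0.40, adjusted p = 0.00123, and 0.0704 without the muscle-containing libraries). Glt1d1, a predicted glycosyltransferase, rose from a range of 0.193 to 0.445 CPM at ZT0 to one of 3.73 to 5.73 CPM at ZT6 (16.4-fold, log2 fold change 3.99 ± 0.63, adjusted p = 9.15e-05), and Tmem132b from 1.16, 0.415, 0.179 and 0.612 CPM to 8.30, 7.69, 6.34 and 1.17 CPM (log2 fold change 3.31 ± 0.61, adjusted p = 0.000458), with replicate 4 of ZT6 far below the others and an adjusted p of 0.225 without the muscle-containing libraries. At ZT0 Glt1d1 lay near the level of 3 counts (0.167 to 0.193 CPM), so the size of its fold is imprecise. Trim66 (4.58-fold, log2 fold change 2.18 ± 0.38, adjusted p = 0.000299) and the non-coding B430219N15Rik (4.32-fold, log2 fold change 2.11 ± 0.32, adjusted p = 5.67e-05) completed the 10 largest rises by the same criteria. Cebpa, a factor that maintains adipocytes, rose less in fold but strongly in CPM, from 329.7, 286, 248 and 399 to 523, 497, 492 and 508 CPM (log2 fold change 0.68 ± 0.15, adjusted p = 0.00263, and 0.134 without the muscle-containing libraries). Impdh1, an enzyme of guanine nucleotide synthesis, rose 1.65-fold (log2 fold change 0.73 ± 0.25, adjusted p = 0.0436), lost on leaving out ZT0 replicates 1, 2 or 3 or ZT6 replicates 2, 3 or 4 in turn (adjusted p from 0.0516 to 0.156) and without the muscle-containing libraries (adjusted p = 0.179).

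Of called genes that averaged 1 CPM or more and whose mice did not overlap, Cyp2b10 had the deepest fall by fold. It encodes a cytochrome P450 known as a target of the receptor CAR. Its level was 40.4, 7.35, 29.6 and 13.5 CPM at ZT0 and 1.19, 0.828, 1.91 and 2.95 CPM at ZT6 (13.2-fold, log2 fold change -3.71 ± 0.63, adjusted p = 0.000194), and its ZT0 mice varied widely without meeting the ZT6 range. Hephl1, a relative of the iron oxidase hephaestin, fell 9.21-fold, from 4.17, 6.34, 16.4 and 3.78 CPM to 1.01, 0.532, 1.07 and 0.724 CPM (log2 fold change -3.19 ± 0.62, adjusted p = 0.000784, and 0.157 without the muscle-containing libraries). Hsph1 and the HSP70 pair were also among the 10 largest falls by these criteria, as were transcripts that overlap a gene on the opposite strand or lie in the mitochondrial genome. Gm26631 fell 10.3-fold (log2 fold change -3.32 ± 0.46, adjusted p = 1.86e-05, 10.7% of its exonic bases opposite to Cox5a), Pdzd9 fell 9.40-fold (log2 fold change -3.19 ± 0.45, adjusted p = 2.32e-05, 23.1% opposite to Uqcrc2) and Gm17040 fell 13.1-fold (log2 fold change -3.66 ± 0.68, adjusted p = 0.000504, 22.7% opposite to Cish). The mitochondrial tRNA gene mt-Te was at 6.16, 2.90, 3.99 and 2.17 CPM at ZT0 and 0.179, 0.237, 0.785 and 0.780 CPM at ZT6 (7.69-fold, log2 fold change -2.91 ± 0.43, adjusted p = 3.94e-05). For these overlapping genes the reads of the partners can be told apart only if the counting used strand.

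Whether the ZT3 mice lay on the line between ZT0 and ZT6 was tested as ZT3 against the mean of the other time points on the log2 scale, with the same fit, and each deviation is given as that log2 difference ± SE. ZT3 lay off the line for 462 of 15505 genes (2.98%): 330 above it (2.13%) and 132 below (0.851%), and 150 of the 462, 32.5%, were also called between ZT0 and ZT6. Without ZT3 replicate 2, the ZT3 mouse with the highest muscle level, the count was 334, and leaving out single mice in turn gave from 163 to 791. On the 12 libraries of lane 2 alone it was 96. Of the 19 clock genes, ZT3 was off the line in 8. It was above for Arntl (0.97 ± 0.20, adjusted p = 0.00831), Nr1d1 (0.90 ± 0.18, adjusted p = 0.00796) and Nr1d2 (0.71 ± 0.15, adjusted p = 0.0106), which describes a late fall of Arntl and an early rise of the REV-ERBs. On the 12 libraries of lane 2 alone the call of Nr1d1 was lost (adjusted p = 0.0617). Rora was also above (0.46 ± 0.11, adjusted p = 0.0214), lost without ZT3 replicate 2 (adjusted p = 0.121). Per2 was below by the most (-1.43 ± 0.22, adjusted p = 0.00097), since all 4 ZT3 mice lay under all mice of both other time points. Bhlhe41 (DEC2), a clock repressor at 23.0, 15.8, 20.6 and 9.01 CPM at ZT0, 14.8, 8.34, 8.41 and 6.58 CPM at ZT3 and 34.9, 33.2, 26.0 and 14.3 CPM at ZT6, was below as well (-1.17 ± 0.30, adjusted p = 0.0263), lost on leaving out ZT0 replicate 1 or ZT3 replicates 2, 3 or 4 in turn (adjusted p from 0.053 to 0.106). Ciart (-1.11 ± 0.27, adjusted p = 0.0221) and Tef (-0.54 ± 0.15, adjusted p = 0.0425) were also below, the first lost on leaving out ZT3 replicates 1, 2 or 3 in turn (adjusted p from 0.0526 to 0.105), the latter lost on leaving out ZT0 replicates 1 or 3, ZT3 replicates 1, 2, 3 or 4 or ZT6 replicates 1, 2 or 3 in turn (adjusted p from 0.0538 to 0.152).

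Of the genes that stood farthest above the line, several calls were lost without ZT3 replicate 3. Irs2, the insulin receptor substrate, was at 39.1, 39.0, 303 and 200.5 CPM at ZT3 beside 8.28 to 30.5 CPM at ZT0 and 29.9 to 38.9 CPM at ZT6 (2.69 ± 0.55, adjusted p = 0.00794), lost without ZT3 replicate 3 (adjusted p = 0.076). Nr4a3, an early response receptor, was at 1.08, 1.36, 29.1 and 7.58 CPM (3.21 ± 0.61, adjusted p = 0.00447), lost without ZT3 replicate 3 (adjusted p = 0.155), and Egr3 at 0.720, 1.20, 8.64 and 4.82 CPM (3.14 ± 0.65, adjusted p = 0.00846), lost without ZT3 replicate 3 (adjusted p = 0.0921). In all 3 genes ZT3 replicates 3 and 4 were high and replicates 1 and 2 were near the neighbours or only modestly raised. Sik1, a kinase induced by cAMP, was at 4.49, 9.78, 11.2 and 11.2 CPM at ZT0, 53.5, 39.3, 199 and 115 CPM at ZT3 and 78.3, 63.8, 9.25 and 9.08 CPM at ZT6 (2.41 ± 0.57, adjusted p = 0.019), lost on leaving out ZT3 replicates 3 or 4 in turn (adjusted p from 0.0514 to 0.131), and its rise to ZT6 (log2 fold change 2.12 ± 0.73, adjusted p = 0.0441) was lost on leaving out ZT0 replicates 1, 2, 3 or 4 or ZT6 replicates 1 or 2 in turn (adjusted p from 0.0539 to 0.166). Dusp8, a phosphatase of stress kinases, was at 0.963, 1.90, 4.35 and 5.73 CPM at ZT0, 22.1, 9.05, 18.2 and 19.5 CPM at ZT3 and 5.91, 3.55, 1.91 and 2.62 CPM at ZT6 (2.35 ± 0.40, adjusted p = 0.00248), and no left-out library removed the call. Pla2g4b was lower at ZT3 than on the line (-1.24 ± 0.33, adjusted p = 0.0356), lost on leaving out ZT0 replicates 2 or 3, ZT3 replicates 2, 3 or 4 or ZT6 replicate 3 in turn (adjusted p from 0.0592 to 0.142), with 66.5% of its exonic bases shared on the same strand with Gm28042.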

How the data were processed

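RNA-seq was made from whole iBAT of 32 mice, 4 at each of 8 time points 3 hours apart, and each mouse gave 1 library. Per the labels and the study's methods, the authors mapped stranded paired-end reads to mm10 (Ensembl 38.88) with GSNAP and counted them per gene with HTSeq-count 0.6.1. Whether the counting used strand is not given in the sources used here. The deposited table holds raw counts for 50686 Ensembl genes, 20100 of them at 0 in all 32 libraries, and 50376 identifiers were matched to a symbol. Totals were 16300770 to 18254659 counts per library. That limits the precision of genes with few counts, and counting intervals cover counting error alone.

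Counts were filtered with filterByExpr by time point, which left 15505 genes with 99.93% of the counts, scaled by TMM and fitted in edgeR 4.0.16 (R 4.3.3, limma 3.58.1) with time point as the factor over all 32 libraries, which share 1 estimate of the spread. Glm quasi-likelihood tests gave ZT6 against ZT0, and ZT3 against the mean of both on the log2 scale. P-values were adjusted by the Benjamini-Hochberg method, with a threshold of 0.05. The SE is the absolute log2 fold change divided by the square root of the test's F value. Folds of named genes are ratios of mean TMM-scaled CPM, so they can differ a little from the fitted log2 fold changes. Summed marker levels and shares of counts were compared by two-sided exact permutation tests. Ratios of genes with 1 to 3 counts in a group carry an exact 95% counting interval. The lowest chi-square per gene between replicates was 11.1, so no pair of libraries agreed within sampling noise. The scripts were tested on simulated data. Alternatives used DESeq2 1.42.0, other scalings, filters, sets of libraries and the replicate number as a block.

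The comparison, hence its members, and the gene lists were chosen with earlier results of these data known, and its libraries were then taken by their time labels. The genes named are list members, the 10 highest and 10 lowest log2 fold changes among called genes that averaged 1 CPM or more and whose ZT0 and ZT6 mice did not overlap, the 5 largest rises and 5 largest falls in CPM among those, and the 5 highest and 5 lowest deviations of ZT3. Predicted genes were ranked but not all named, and results for some genes are not reported here. Gene positions and overlaps come from GENCODE M21 (GRCm38), a later release than the one counted, and promoter windows from RefSeq (GRCm38.p6). Mice at a time point are separate animals, but no label gives litters, extraction dates or cages.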

Additional observations from a re-analysis of the deposited data

Results flagged for a closer look

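In 14 of the 262 groups of 4 mice examined (5.34%), 1 mouse lay farther from the rest than Dixon's 95% limit allows, and chance alone gives about 1 group in 20. Of these 14, 4 fell on ZT0 replicate 4. Fbn1 was at 32.1 CPM in that mouse, beside 14.6 to 17 CPM in the other ZT0 mice, and Mki67 was at 4.78 CPM, beside 1.35 to 1.79 CPM. In the same mouse Pdia6, an ER disulphide isomerase, was at 93.1 CPM (others 103 to 105 CPM) and Psmd12, a proteasome subunit, at 64.3 CPM (others 78.8 to 80 CPM).

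ZT0 replicate 3 stood apart in Angptl8, at 129 CPM beside 40.3 to 53.8 CPM, and in Fkbp5, at 10.9 CPM beside 5.33 to 6.1 CPM. ZT0 replicate 1 was low in Col5a1, at 22.1 CPM beside 30.2 to 30.9 CPM. These are among the mice whose removal ended the calls of Angptl8 and Col5a1.

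ZT6 replicate 2 held a summed muscle marker level of 2125 CPM, beside 57 to 62.4 CPM in the other ZT6 mice, and Fos at 14.7 CPM, beside 0.505 to 1.67 CPM. ZT6 replicate 4 was high in Emcn (31 CPM, others 23.7 to 24.2 CPM) and low in Psmd6 (35.5 CPM, others 38.8 to 39.2 CPM). Hsp90aa1 was at 101 CPM in ZT6 replicate 1, beside 60.5 to 66.3 CPM, and Trib3 at 14 CPM in ZT6 replicate 3, beside 10.6 to 11.2 CPM. At ZT3, Pla2g4b was at 0.9 CPM in replicate 1, beside 0.348 to 0.411 CPM.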

How the results depend on the processing

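The 2679 genes between ZT0 and ZT6 became 2650 with DESeq2 size factors, 2323 by library size alone (59.7% of them higher, beside 50.3%), 2620 without mitochondrially encoded genes, 1972 without a filter, 2616 with a filter blind to groups, 2788 with DESeq2 and 2872 with the muscle level as a covariate. They became 1352 on the 8 libraries alone (736 higher, 616 lower), 1893 on the 12 libraries of lane 2 (1035 higher, 858 lower), 113 when tested against a 1.5-fold change (40 higher, 73 lower), which by its construction keeps only large changes, and 603 without the muscle-containing libraries (281 higher, 322 lower), a fit with 28 libraries and 1 ZT0 mouse, which is assumed to vary like the other groups. The muscle alternatives were chosen after seeing the data. Leaving out 1 ZT0 or ZT6 mouse gave from 1846 genes (without ZT0 replicate 3) to 3410 (without ZT0 replicate 4), with 926 to 1712 higher and 909 to 1698 lower. The 462 genes with ZT3 off the line became 489 with DESeq2 size factors, 451 by library size alone, 307 without a filter and 96 on lane 2 alone, and from 163 (without ZT3 replicate 3) to 791 (without ZT0 replicate 4) on leaving out a mouse, with 236 without ZT3 replicate 4 and 277 without ZT6 replicate 3. The share of mitochondrial counts differed by 1.00 percentage points (exact permutation p = 0.514), by 1.37 for mRNAs alone, and by -0.188 to 1.64 on leaving out 1 mouse. Where fewer libraries or more genes entered, the fit itself changed, and otherwise the cause was not tested.

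Replicate numbers did not pair the mice: the correlations of same-numbered ZT0 and ZT6 mice were 0.3, -0.299, -0.335 and -0.103, and no ZT0 mouse correlated best with its own number. A fit with the replicate block gave 2589 genes over 32 libraries (1302 higher, 1287 lower) and 435 for ZT3, and the block on the 8 libraries alone gave 720 (364 higher, 356 lower).

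Of the 95 genes named as risen or fallen, 38 passed under every alternative in which they were tested, other than the 1.5-fold test. Some of these, among them Npas2 and Glt1d1, had been left out of an alternative and were not tested there. None of the 95 reversed. Of 26 named genes not past the threshold, 5 passed under some alternative, and of 14 genes with ZT3 off the line, 10 were lost under some alternative. With 3 counts equal to 0.167 to 0.193 CPM, depth limits what can be said of genes near that level.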

Other observations

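Some gene groups in which few members passed are given here as values. Of 31 proteasome genes, 4 fell (beside 8.58% of all genes tested) and none rose, by at most 1.30-fold, and the count was 0 on the 8 libraries alone and without the muscle-containing libraries and 3 with the covariate. Psmd6, a lid subunit, was at 44.5, 54.2, 58.7 and 40.7 CPM at ZT0 and 39.2, 38.8, 38.9 and 35.5 CPM at ZT6 (log2 fold change -0.38 ± 0.13, adjusted p = 0.0439), and Psmd12 was 1.25-fold lower (log2 fold change -0.32 ± 0.10, adjusted p = 0.0308). Both calls were lost without single libraries, Psmd6 without ZT0 replicates 2 or 3 or ZT6 replicates 1, 2, 3 or 4 (adjusted p from 0.0686 to 0.177) and Psmd12 without ZT0 replicates 1, 2 or 3 or ZT6 replicates 2, 3 or 4 (adjusted p from 0.0581 to 0.0967). Of 18 genes of fatty acid oxidation and PPAR targets 1 rose (beside 8.69% of all genes tested), Ppara. Ehhadh, a peroxisomal enzyme, was at 70.8, 75.1, 51.9 and 37.5 CPM at ZT0 and 145, 147, 107 and 132 CPM at ZT6, without overlap between the mice but not past the threshold (log2 fold change 1.18 ± 0.49, adjusted p = 0.0946, adjusted p = 0.00957 on the 8 libraries alone). The mitochondrial enzyme Acadvl was at 1639.7 to 1917 CPM at ZT0 and 1626 to 1861 CPM at ZT6 (log2 fold change -0.05 ± 0.09, adjusted p = 0.734).

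Of 14 cell cycle genes 1 rose (beside 8.69% of all genes tested), with a count of 0 on the 8 libraries alone and without the muscle-containing libraries and of 2 with the covariate. Ccnb1 (cyclin B1) was at 0.449, 0.237, 0.0596 and 0.612 CPM at ZT0 and 0.836, 1.12, 1.12 and 1.00 CPM at ZT6 (log2 fold change 1.56 ± 0.45, adjusted p = 0.0164), and the call was lost on leaving out ZT0 replicates 2 or 3 in turn (adjusted p from 0.0554 to 0.0666). The proliferation marker Mki67 was at 1.35, 1.78, 1.79 and 4.78 CPM and 2.33, 2.60, 1.46 and 2.06 CPM (log2 fold change -0.21 ± 0.48, adjusted p = 0.801). Of 5 Schwann cell markers none passed. None of 8 lymphoid markers was past the threshold, and their sum was 9.12 to 13.7 CPM at ZT0 and 12.7 to 16.2 CPM at ZT6 (exact permutation test, two-sided, p = 0.0571). For 5 blood cell markers, none of which passed, the sums were 471 to 855 CPM and 451 to 906 CPM (exact permutation p = 0.514).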
